A study of Mus musculus with 6 samples.

Results

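The inner mitochondrial membrane carries a small set of proteases and the ring-forming scaffolds that hold them. 10 genes of this set were followed in cultured mouse cortical neurons depleted of Opa1: the proteases Yme1l1, Oma1, Afg3l2, Spg7, Parl, Immp1l and Immp2l, and the scaffolds Phb, Phb2 and Stoml2. They were picked by symbol for their known function. All 10 were found among the 55471 gene identifiers counted, and all 10 passed the filter on low counts that left 16562 genes for testing. The neurons were prepared from cortices of CD1 mouse embryos at or just before embryonic day 15, are listed as brain tissue, and were grown with 2 uM cytosine arabinoside (Ara-C), which kills dividing cells. Lentivirus was added on day 6 and RNA was taken on day 11. The control group (shControl) is labelled WT in genotype, and the other group (shOpa1) carries a short hairpin RNA against Opa1, so that both groups share the virus and the drug. Each group had 3 libraries described as biological replicates. How many hairpins were used is not given, and the p-values below speak only of the spread among these 6 libraries, which may be technical.

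OPA1 is a GTPase that fuses inner membranes and shapes cristae. It is cut into short forms by 2 proteases, the i-AAA protease YME1L1, whose active side faces the intermembrane space, and OMA1, which is activated when the membrane loses its potential. The m-AAA protease faces the matrix and is built from AFG3L2 alone or with SPG7 (paraplegin); mouse cells have a further subunit, AFG3L1. Inherited faults of AFG3L2 and SPG7 cause ataxia and spastic paraplegia, and loss of OPA1 function causes optic atrophy. PHB and PHB2 alternate in large rings that bind the m-AAA protease, STOML2 forms a related scaffold with PARL and YME1L1, and PARL is a rhomboid protease that cuts PINK1, PGAM5 and other proteins within the membrane. IMMP1L and IMMP2L form the peptidase that trims proteins sorted to the intermembrane space.

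Opa1 itself measured 201.8, 204.6 and 201.9 CPM (counts per 1000000 of the scaled library size) in shControl and 10.2, 8.64 and 8.50 CPM in shOpa1. Library totals ran from 24676709 to 32961580 counts. On the second principal component, replicate 3 of each group lay away from the remaining libraries (26.9% of the variance), at scores of -41.8 and -38.9 against 18.6 to 22.0. Same-numbered differences are therefore given for each pair below. Neuron markers summed to 7325 to 7807 CPM in shControl and to 5074 to 5419 CPM in shOpa1, with 1 of 8 higher and 5 lower. Astrocyte markers summed to 23.7 to 87.5 and 11.54 to 34.1 CPM, with 1 of 5 higher and 1 lower, and oligodendrocyte lineage markers to 40.7 to 63.8 and 34.5 to 48.1 CPM, with 1 of 5 lower. Over all tested genes 18.9% were called higher and 20.0% lower. With the replicate number added as a block, 7 of 8 neuron, 4 of 5 astrocyte and 2 of 5 oligodendrocyte lineage markers were lower. That fit called 5081 of all 16562 tested genes lower. Of the microglia markers (5.46 to 7.92 and 3.27 to 4.61 CPM) only Aif1 could be tested, and it fell by 1.00 (edgeR adjusted p = 0.00822). The untested Cx3cr1 had 0, 4 and 1 counts in shControl and 12, 11 and 3 in shOpa1. Csf1r had 5, 5 and 4 counts in shControl and 15, 11 and 7 in shOpa1, and C1qa 6, 10 and 3 against 8, 2 and 5. P2ry12 had 0 or 1 count per library, so the microglia markers did not all move one way. Markers of endothelial cells (1.55 to 3.04 and 1.35 to 3.55 CPM) and dividing cells (0.673 to 7.86 and 0.905 to 1.62 CPM) were low, and no marker was at 0 in every library. Fewer cells of a type and less RNA per cell cannot be told apart in these bulk libraries, and the part of these marker shifts in the results was not tested.

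The genes split in both directions. Afg3l2, Phb, Stoml2 and Parl rose, Yme1l1 and Spg7 fell, and Oma1, Phb2, Immp1l and Immp2l did not pass the test (threshold 0.05 on the Benjamini-Hochberg adjusted p of edgeR over all 16562 genes). The 6 changes were moderate, from 0.26 to 0.54 in size on the log2 scale. The 4 rising genes are set against 18.9% of all tested genes called higher, the 2 falling genes against 20.0% called lower, and the 6 together against 38.9% called in either direction. The same 6 genes were called when the replicate number was added as a block, where 59.5% of all tested genes were called, so that 6 of 10 is then the share of all genes. They were also the 6 whose shOpa1 and shControl libraries did not overlap, as was the case for 51.8% of all tested genes. The median log2 fold change of the 10 genes was 0.08, and that of all tested genes -0.01. In the authors' deposited table, where 40.9% of the genes with an adjusted p are called, the same 6 genes pass 0.05, with log2 fold changes from -0.49 for Yme1l1 to 0.55 for Parl. For Spg7 that table has a standard error of 0.0699, against 0.103 in an unblocked DESeq2 fit, so its model may hold more than the group.

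**Figure D1:**
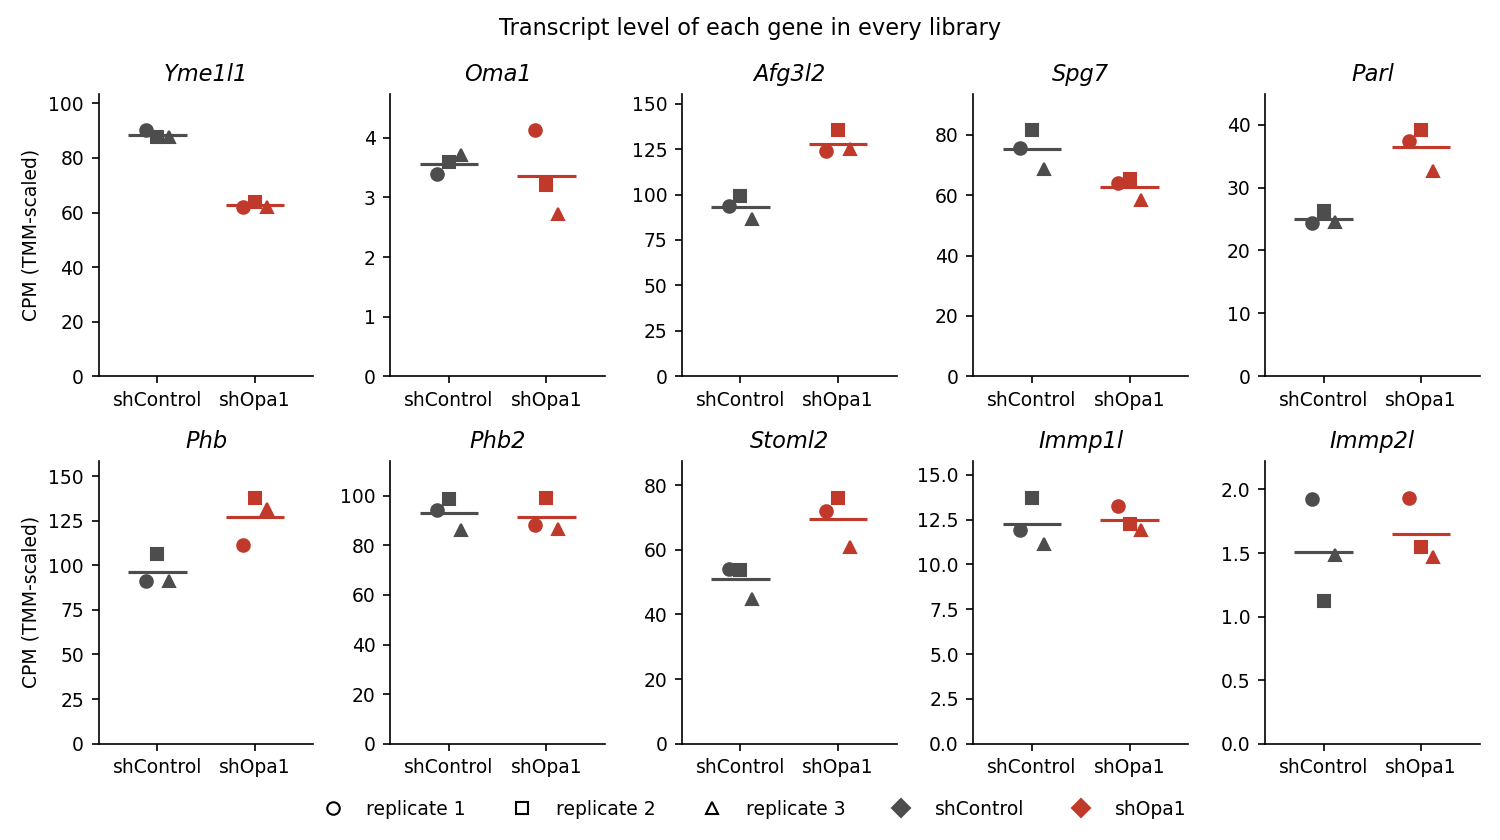
Each panel shows 1 gene, with CPM on scaled library sizes on the vertical axis from 0. Points are the 3 shControl and 3 shOpa1 libraries, with a marker shape for each replicate number, and horizontal lines are group means. The groups are apart for Yme1l1, Spg7, Afg3l2, Phb, Stoml2 and Parl and overlap for the other 4 genes.

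Among the 2 proteases that cut OPA1, the transcript of Yme1l1 fell and that of Oma1 did not pass the test. Yme1l1 (ENSMUSG00000026775; GRCm38 chromosome 2, 23156369 to 23199260, plus strand) measured 90.1, 87.8 and 87.6 CPM in shControl and 62.0, 63.8 and 62.1 CPM in shOpa1. The libraries of each group lay within 3 CPM of each other, and the groups were far apart. Group means were 88.5 ± 1.41 and 62.6 ± 0.978 CPM (SD, n = 3), a log2 fold change of -0.50 with a standard error of 0.0545 (95% interval -0.63 to -0.37; edgeR adjusted p = 0.000575). This was 0.708 of the control level. On log2(CPM + 0.5), pairs 1, 2 and 3 differed by -0.54, -0.46 and -0.49, so the fall was of like size in every pair. The call held with each library left out in turn.

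Oma1 (ENSMUSG00000035069; chromosome 4, 103313812 to 103371868, plus strand) had only 81 to 128 counts per library. It measured 3.40, 3.59 and 3.71 CPM in shControl and 4.13, 3.21 and 2.72 CPM in shOpa1. The shOpa1 libraries lay on both sides of the control values, and the pairs differed by 0.25, -0.14 and -0.39. The log2 fold change of -0.09 ± 0.191 (SE) had a 95% interval from -0.54 to 0.36 (edgeR adjusted p = 0.744), which at this depth holds changes as large as that of Yme1l1. Per kb of exon, the ratio of Yme1l1 to Oma1 was 7.11, 6.55 and 6.32 in shControl and 4.02, 5.31 and 6.11 in shOpa1. All shOpa1 ratios were below all control ratios, but the pairs ranged from -0.82 to -0.05 on the log2 scale. The mean difference was -0.39 (exact two-sided permutation p = 0.10, the smallest that 3 against 3 libraries allow; 0.125 after adjustment over the 5 ratios computed). Without shOpa1 replicate 1 it was -0.22.

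The 3′ UTR of Yme1l1 holds 1 copy of the 7-base sequence GAAACTA, and no other of the 10 genes has one in its longest annotated 3′ UTR. The site lies 519 bases after the stop codon in a 3′ UTR of 2229 bases. It is shown because the 1334 of 13850 genes (9.63%) that carry these letters had a median log2 fold change of -0.42, against 0.02 for the others. The 7 letters were found in an earlier search on these same fold changes, so that median is a description. With the 7 bases in capitals, the site (GRCm38 chr2:23197539-23197567, plus strand) reads:
Yme1l1 3′ UTR: ggcctttaaaaGAAACTAtttgaattgta
The part of the site in the fall of Yme1l1 was not tested. Spg7, which also fell, has no copy, so a copy was seen in 1 of the 2 falling genes and in 0 of the 4 rising ones. That tally draws no link to direction, because the 3′ UTR of Yme1l1 is the longest of the 10 genes. The next longest, that of Phb, has 867 bases, and a longer sequence has more places for 7 letters. The 2 medians above were not matched for 3′ UTR length either.

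**Figure D2:**
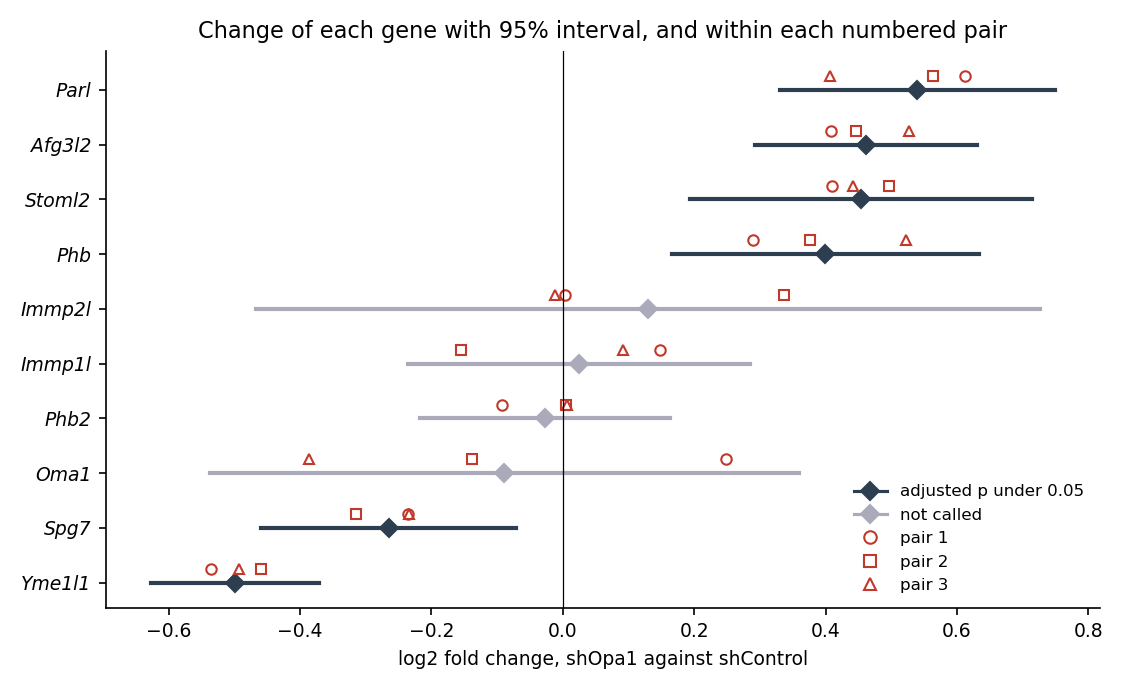
The log2 fold change of shOpa1 against shControl is plotted for the 10 genes. Diamonds are estimates with 95% intervals, dark where the adjusted p was under 0.05 and grey where it was not, and open red marks are the differences within the 3 numbered pairs. Parl (0.54), Afg3l2 (0.46), Stoml2 (0.45) and Phb (0.40) lie above 0, while Yme1l1 (-0.50) and Spg7 (-0.26) lie below it.

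The subunits of the m-AAA protease moved in opposite directions. Afg3l2 (ENSMUSG00000024527; chromosome 18, 67404764 to 67449172, minus strand) measured 93.4, 99.2 and 86.5 CPM in shControl and 124, 135 and 125 CPM in shOpa1. Every shOpa1 library exceeded every control library. Means were 93.1 ± 6.33 and 128 ± 6.28 CPM (SD, n = 3), a log2 fold change of 0.46 ± 0.0723 (SE; 95% interval 0.29 to 0.63; edgeR adjusted p = 0.00250), or 1.38-fold. The pairs differed by 0.41, 0.45 and 0.53, and the call held with each library left out.

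Spg7 (ENSMUSG00000000738; chromosome 8, 123062942 to 123097760, plus strand), the partner subunit paraplegin, measured 75.5, 81.5 and 68.9 CPM in shControl and 64.1, 65.4 and 58.5 CPM in shOpa1. The gap between the groups was smaller than the spread within either group. Its log2 fold change was -0.26 ± 0.083 (SE; 95% interval -0.46 to -0.07; edgeR adjusted p = 0.0394), and the pairs differed by -0.24, -0.31 and -0.23. The size was alike in every pair, but the unblocked call was narrow. It ended without shControl replicate 1 (adjusted p = 0.0985), without shControl replicate 2 (0.124) and without shOpa1 replicates 1, 2 or 3 (0.0830, 0.0750 and 0.0767), and under upper quartile scaling (0.0659). With the replicate block the adjusted p was 0.000807.

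Afg3l1, the close paralog of Afg3l2, went the way of Spg7 but did not pass the test. It measured 86.6, 92.2 and 75.6 CPM in shControl and 71.8, 77.0 and 57.7 CPM in shOpa1, and the groups overlapped through shControl replicate 3 and shOpa1 replicate 2. The log2 fold change was -0.30 ± 0.123 (SE; edgeR adjusted p = 0.0920), with pairs at -0.27, -0.26 and -0.39, and the block gave an adjusted p of 0.000335. Without shOpa1 replicate 3 the log2 fold change was -0.19. The ratio of Afg3l2 to Spg7 per kb was 0.566, 0.557 and 0.575 in shControl and 0.887, 0.946 and 0.977 in shOpa1, which is 1.65-fold. The ratio of Afg3l2 to Afg3l1 was 0.520, 0.518 and 0.551 in shControl and 0.833, 0.846 and 1.04 in shOpa1, which is 1.70-fold. Neither pair of groups overlapped, and both tests reached the smallest p that the design allows (exact two-sided permutation p = 0.10, 0.125 adjusted over 5 ratios).

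**Figure D3:**
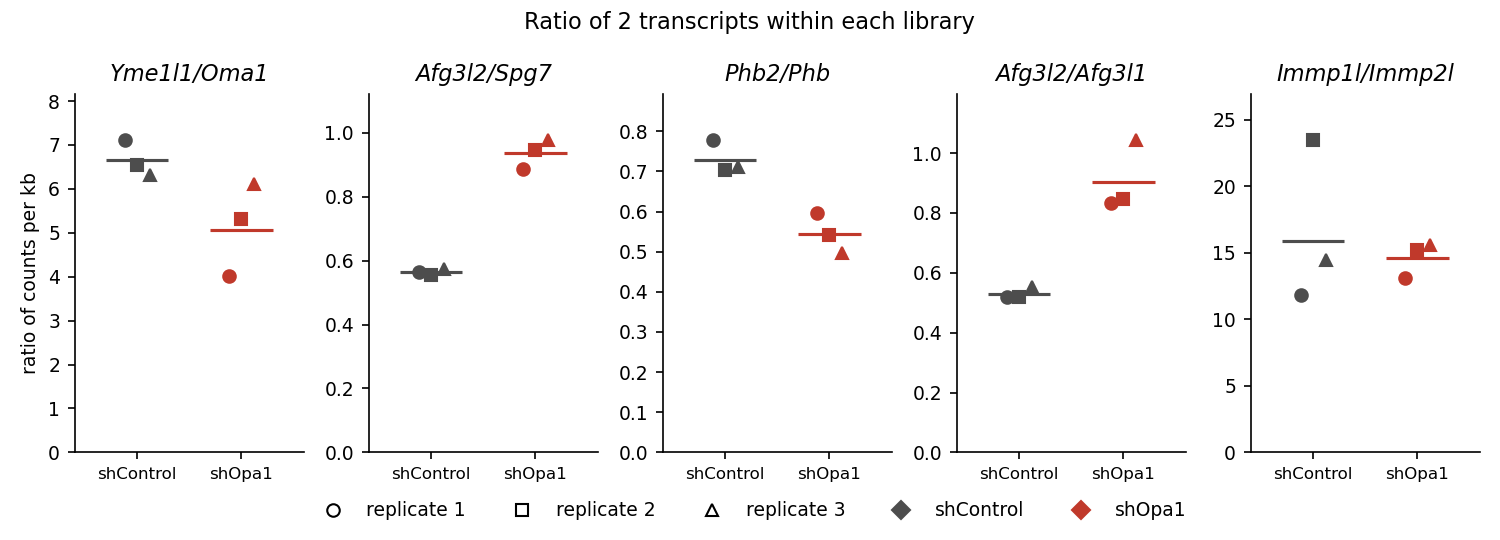
The 5 ratios between genes are plotted for each library, as counts per kb of exon on linear axes from 0, with shControl and shOpa1 side by side and horizontal lines at the group means. The ratios of Afg3l2 to Spg7 and to Afg3l1 are higher in all shOpa1 libraries, those of Phb2 to Phb and Yme1l1 to Oma1 are lower, and those of Immp1l to Immp2l overlap.

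Of the 2 prohibitins, Phb rose and Phb2 did not pass the test. Phb (ENSMUSG00000038845; chromosome 11, 95666957 to 95680773, plus strand) measured 91.3, 106 and 91.3 CPM in shControl and 112, 138 and 131 CPM in shOpa1. The lowest shOpa1 library lay just above the highest control library. Means were 96.2 ± 8.53 and 127 ± 13.6 CPM (SD, n = 3), and the log2 fold change was 0.40 ± 0.10 (SE; 95% interval 0.17 to 0.63; edgeR adjusted p = 0.0170). The pairs differed by 0.29, 0.38 and 0.52. Leaving out shControl replicate 1 raised the adjusted p to 0.0666, leaving out shOpa1 replicate 2 raised it to 0.0643, and the call was also lost with pairs 1 and 2 alone (0.0634). The predicted gene Gm7666 is 99.878% identical to a Phb transcript over 819 bases, so reads may be split between them, and its counts were 3.98% to 8.23% of those of Phb. With its counts added, a step chosen after the data were seen, the log2 fold change was 0.41 (adjusted p = 0.0124).

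Phb2 (ENSMUSG00000004264; chromosome 6, 124712336 to 124716950, plus strand) measured 94.1, 98.8 and 86.0 CPM in shControl and 88.2, 99.1 and 86.4 CPM in shOpa1, and the groups overlapped throughout. Its log2 fold change was -0.03 ± 0.0813 (SE; edgeR adjusted p = 0.821). The 95% interval from -0.22 to 0.16 does not hold a rise of the size estimated for Phb. Upper quartile scaling turned the sign, to 0.02. Of its exon bases, 7.96% overlap other genes, which the counting could not tell apart. The ratio of Phb2 to Phb per kb was 0.778, 0.703 and 0.711 in shControl and 0.596, 0.543 and 0.497 in shOpa1. All 3 pairs fell, by 0.38, 0.37 and 0.52 on the log2 scale (mean -0.43; exact two-sided permutation p = 0.10, 0.125 adjusted over 5 ratios).

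The scaffold Stoml2 and the rhomboid protease Parl both rose. Stoml2 (ENSMUSG00000028455; chromosome 4, 43027690 to 43031710, minus strand) measured 54.1, 53.8 and 44.7 CPM in shControl and 72.0, 76.0 and 60.9 CPM in shOpa1. The libraries numbered 3 were the lowest of both groups, and the groups did not overlap. The log2 fold change was 0.45 ± 0.111 (SE; 95% interval 0.19 to 0.71; edgeR adjusted p = 0.0157), with pairs at 0.41, 0.50 and 0.44. The call was lost without shOpa1 replicate 1 (adjusted p = 0.0556) and without shOpa1 replicate 2 (0.0605). Parl (ENSMUSG00000033918; chromosome 16, 20279818 to 20302387, minus strand) measured 24.3, 26.3 and 24.5 CPM in shControl and 37.5, 39.1 and 32.6 CPM in shOpa1. Its lowest shOpa1 library stood well above all controls. The log2 fold change of 0.54 ± 0.0891 (SE; 95% interval 0.33 to 0.75; edgeR adjusted p = 0.00311), or 1.45-fold, was the highest of the 10 genes. The pairs differed by 0.61, 0.56 and 0.41, and the call held with each library left out.

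The 2 subunits of the inner membrane peptidase did not pass the test. Immp1l (ENSMUSG00000042670; chromosome 2, 105904638 to 105965558, plus strand) measured 11.9, 13.7 and 11.2 CPM in shControl and 13.2, 12.3 and 11.9 CPM in shOpa1. Its log2 fold change was 0.03 ± 0.111 (SE; 95% interval -0.24 to 0.29; edgeR adjusted p = 0.880), and the pairs, at 0.15, -0.16 and 0.09, had no common sign. Immp2l (ENSMUSG00000056899; chromosome 12, 41024090 to 41955588, plus strand) had 30 to 60 counts per library. It measured 1.93, 1.12 and 1.48 CPM in shControl and 1.93, 1.55 and 1.47 CPM in shOpa1, a log2 fold change of 0.13 ± 0.255 (SE; 95% interval -0.47 to 0.73; edgeR adjusted p = 0.721). The interval is wide at this depth and holds a rise as large as that of Parl. The ratio of Immp1l to Immp2l per kb ran from 11.8 to 23.5 in shControl and from 13.1 to 15.6 in shOpa1 (exact two-sided permutation p = 0.90, also after adjustment), and the sign of its difference turned without shControl replicate 2 (-0.12 to 0.16).

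Promoter sequence was read for the genes that rose together. RefSeq windows of 250 bases before to 50 after the start (GRCm38.p6) matched 9 of the 10 genes; Afg3l2 had no entry. Each window was searched on both strands for TGATGNAA, the core of the composite element bound by CHOP and ATF4, TGACGTCA (cAMP response element), GCATGCGC (NRF1 motif), CCGGAAG (ETS motif) and CCAAT (NF-Y motif). The motifs TGATGNAA, TGACGTCA and GCATGCGC were in 0 of 9 windows, and in 3.97%, 1.79% and 2.71% of all 32851 windows. Only these exact letters were counted, so the 0 for GCATGCGC says nothing of other forms of the NRF1 motif. The Phb window below holds gcacgcgc, which differs from GCATGCGC by 1 letter and was not searched for. The letters CCGGAAG were in 4 of 9 and 8.86% of all, with 3 copies each in Yme1l1 and Phb2 and 1 each in Stoml2 and Parl. The letters CCAAT were in 4 of 9 and 37.4% of all, with 4 copies in Immp1l and 1 each in Yme1l1, Phb and Immp2l. Windows with and without CCGGAAG were found among genes that rose, fell and did not pass the test. The windows of the rising genes are given, with CCGGAAG or CCAAT on either strand in capitals, for Phb (chr11:95666707-95667006, plus strand), Stoml2 (chr4:43031335-43031634, minus strand) and Parl (chr16:20302313-20302612, minus strand):
Phb: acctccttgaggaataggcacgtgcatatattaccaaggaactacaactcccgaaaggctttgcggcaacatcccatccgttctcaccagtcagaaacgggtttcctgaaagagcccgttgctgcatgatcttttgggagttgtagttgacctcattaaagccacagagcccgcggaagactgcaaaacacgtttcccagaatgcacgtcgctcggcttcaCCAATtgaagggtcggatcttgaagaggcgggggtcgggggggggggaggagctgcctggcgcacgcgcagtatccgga
Stoml2: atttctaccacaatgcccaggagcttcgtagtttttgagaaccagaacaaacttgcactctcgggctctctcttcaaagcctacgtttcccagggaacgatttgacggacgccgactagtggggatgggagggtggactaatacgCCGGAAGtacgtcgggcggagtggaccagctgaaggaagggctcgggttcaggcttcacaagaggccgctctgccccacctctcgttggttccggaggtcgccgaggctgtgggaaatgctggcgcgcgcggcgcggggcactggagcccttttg
Parl: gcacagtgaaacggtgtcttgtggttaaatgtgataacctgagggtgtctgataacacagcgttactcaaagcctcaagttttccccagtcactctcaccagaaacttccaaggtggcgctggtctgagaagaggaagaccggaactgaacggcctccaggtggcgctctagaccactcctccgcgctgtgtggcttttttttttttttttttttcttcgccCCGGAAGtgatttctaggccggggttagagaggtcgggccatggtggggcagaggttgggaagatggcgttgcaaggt
The capitals mark CCAAT starting 29 bases before the start of Phb, and CCGGAAG starting 105 and 28 bases before those of Stoml2 and Parl. A match is a run of letters and not a measured binding site.

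Levels of different genes were compared as CPM per kb of merged exon length. In shControl, Phb was the most abundant at 34.3 ± 3.04 CPM per kb (SD, n = 3), followed by Phb2 at 25.0 ± 1.74. Stoml2 (16.8 ± 1.77) and Spg7 (16.7 ± 1.40) had overlapping libraries, while all other neighbours in the order were apart. Immp1l stood at 12.8 ± 1.38, Yme1l1 at 11.1 ± 0.176, Afg3l2 at 9.42 ± 0.641 and Parl at 6.43 ± 0.285 CPM per kb. The least abundant were Oma1 at 1.66 ± 0.0735 and Immp2l at 0.825 ± 0.221 CPM per kb. Phb thus lay at percentile 90.9 of all tested genes and Immp2l at percentile 24.5. Merged exon length counts every annotated exon, used or not, so a gene with a long model such as Afg3l2 (9874 bases) is placed lower than its main transcript would be.

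In shOpa1 the order changed in its middle. Yme1l1 went from the sixth to the eighth place, at 7.82 ± 0.122 CPM per kb, below Afg3l2 (13.0 ± 0.636) and Parl (9.35 ± 0.866), which had both been below it in shControl. These places rest on merged exon lengths, 8009 bases for Yme1l1 and 9874 for Afg3l2. With other lengths Afg3l2 might stand above Yme1l1 in both groups. Libraries of Spg7 (13.9 ± 0.817) overlapped those of Immp1l (13.1 ± 0.720), which overlapped those of Afg3l2. Those of Phb2 (24.5 ± 1.85) overlapped those of Stoml2 (23.0 ± 2.60). Phb kept the first place at 45.3 ± 4.86 CPM per kb, and Oma1 (1.56 ± 0.333) and Immp2l (0.900 ± 0.136) the last places.

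**Figure D4:**
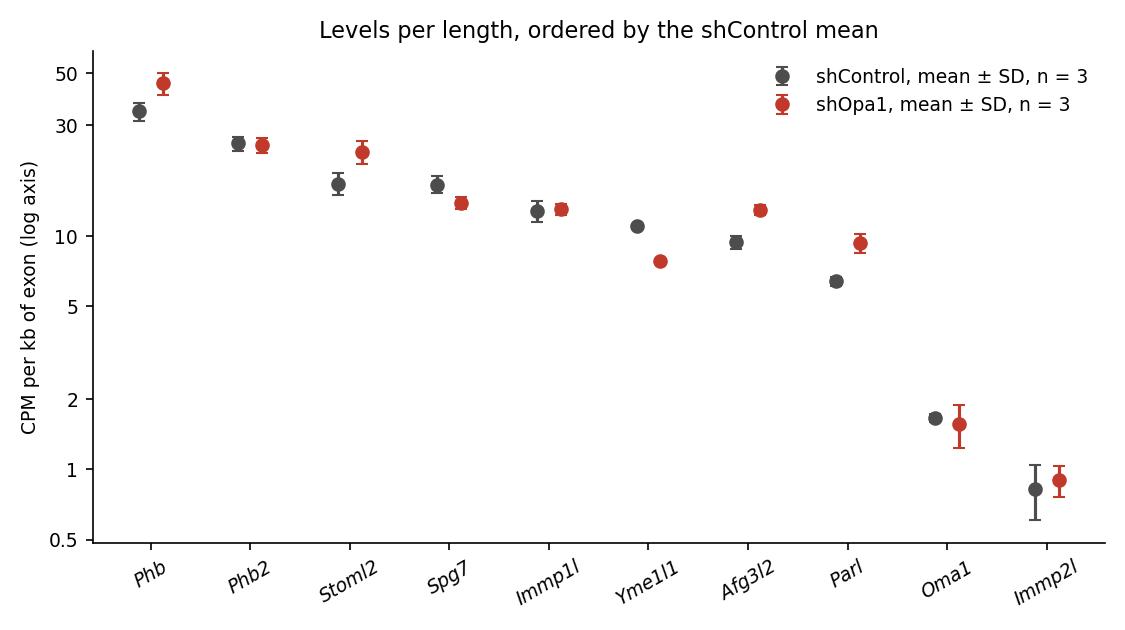
Levels of the 10 genes are plotted as CPM per kb of merged exon length on a log axis, ordered by the shControl mean. Points are group means of shControl and shOpa1 and error bars are the SD of 3 libraries. Phb is highest in both groups, and Yme1l1 passes from above to below Afg3l2 and Parl, an order that depends on the lengths used.

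Other genes of mitochondrial protein turnover also moved both ways. Of 14 other mitochondrial proteases, 5 were higher and 3 lower in shOpa1, beside 18.9% and 20.0% of all tested genes, with a median log2 fold change of 0.01. Those with the smallest p among the risers were Lonp1, which degrades damaged matrix proteins, by 0.59 (edgeR adjusted p = 0.00129), Clpp, the proteolytic subunit of the ClpXP protease, by 0.62 (0.00246) and Pitrm1, which clears presequence peptides, by 0.55 (0.00277). Lonp1 measured 96.0, 111 and 96.5 CPM in shControl and 144, 155 and 158 CPM in shOpa1. Xpnpep3, an aminopeptidase that trims cut precursors, fell by 0.66 (adjusted p = 0.000947), from 21.7, 22.6 and 20.6 CPM to 14.1, 13.6 and 13.3 CPM. The number of lower genes was 1 without shControl replicate 1, and that of higher genes was 3 without shControl replicate 2. With the replicate block, which called 59.5% of all genes, 6 were higher and 5 lower, Afg3l1 among the latter.

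Of 20 substrates and partners of the 10 genes, 9 were higher and 4 lower in shOpa1, beside the same 18.9% and 20.0% of all genes, with a median log2 fold change of 0.16. With the replicate block, which called 4770 of all 16562 tested genes higher and 5081 lower, 11 were higher and 5 lower. The 4 lower genes include the targeted Opa1. Ghitm, an inner membrane protein that binds the m-AAA protease, rose by 0.93 (SE 0.0709, edgeR adjusted p = 0.000135). It measured 231, 225 and 206 CPM in shControl and 434, 435 and 394 CPM in shOpa1. Slc25a39, the mitochondrial glutathione carrier whose protein AFG3L2 turns over, rose by 0.88 (adjusted p = 0.000320). Pgam5, a phosphatase cut by PARL, rose by 0.57 (adjusted p = 0.000608), from 70.6, 75.1 and 66.9 CPM to 104, 107 and 105 CPM. Pink1, also cut by PARL, fell, with a log2 fold change of -0.48 (edgeR adjusted p = 0.00105). It measured 142, 135 and 130 CPM in shControl and 97.3, 100 and 93.9 CPM in shOpa1, and was named after its values were seen. Maip1, a partner of the m-AAA protease needed to process the calcium uniporter regulator EMRE, fell by 1.12 (SE 0.128, adjusted p = 0.000712). It measured 13.5, 13.5 and 13.1 CPM in shControl and 6.22, 7.01 and 5.26 CPM in shOpa1, and was singled out after its values were seen. Carriers of GAAACTA among the related genes did not all move one way. Maip1 (2 copies) and Xpnpep3 (1 copy) fell, Gpd2 (1 copy) rose by 0.26 (adjusted p = 0.0260), and Diablo (1 copy) had a log2 fold change of -0.28 (adjusted p = 0.328). Gpd2 and Diablo were likewise named after their values were seen.

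Relatives of the prohibitins outside the inner membrane were described in the same way. Of 7 such genes of the SPFH family, 6 could be tested, 0 were higher and 3 lower, beside 18.9% and 20.0% of all genes, with a median log2 fold change of -0.38. Flot1, a scaffold of the plasma membrane and endosomes, fell by 0.76 (edgeR adjusted p = 0.000247), from 105, 111 and 112 CPM to 60.2, 67.2 and 66.3 CPM. Stoml1, of late endosomes, fell by 0.56 (adjusted p = 0.000813), and Erlin2, of the endoplasmic reticulum, by 0.57 (0.00153). Flot1, Stoml1 and Erlin2 were called in each leave-one-out fit, and with pairs 1 and 2 alone 1 gene of the list was higher.

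**Figure D5:**
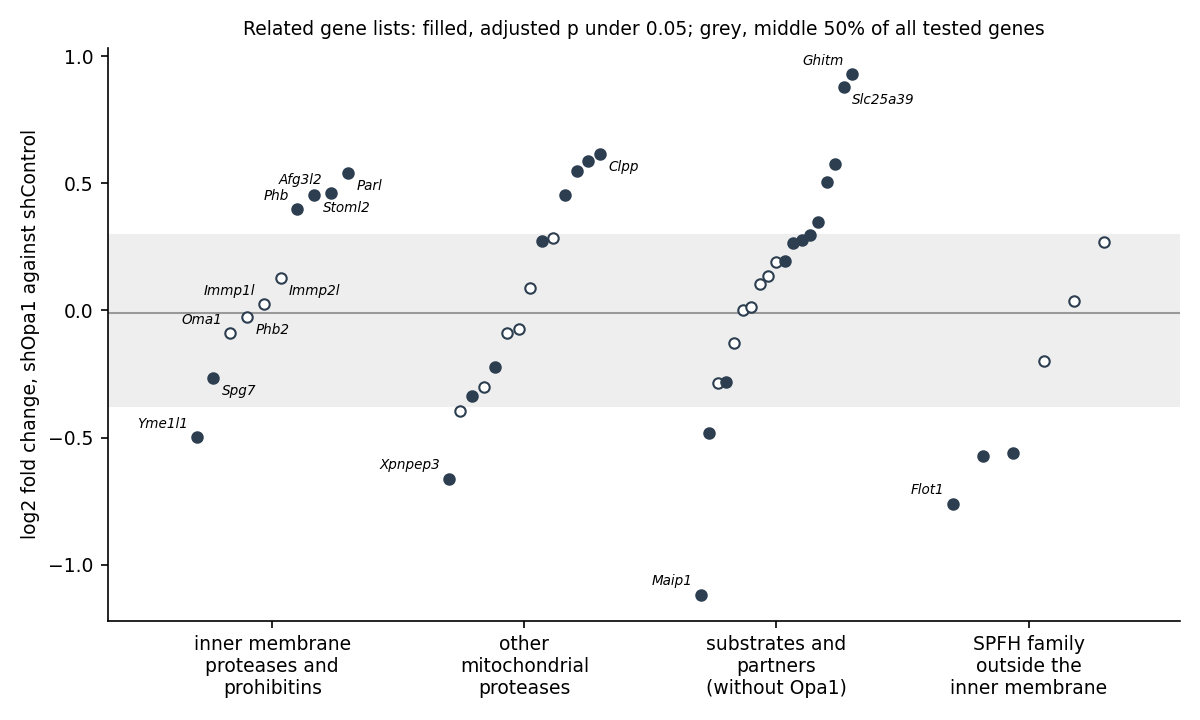
The log2 fold change of shOpa1 against shControl is plotted for each tested gene of 4 lists, ordered within a list. Filled points passed an adjusted p of 0.05, the grey band spans the middle of all tested genes from the lower to the upper quartile, and the line is their median. Opa1 is left off for scale. The 10 genes of the first list run from -0.50 (Yme1l1) to 0.54 (Parl).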

How the data were processed

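RNA was sequenced from 3 shControl and 3 shOpa1 libraries made with a stranded kit that selects mRNA, per the labels' protocols. The authors deposited raw read counts per gene, counted by featureCounts 1.6.0 over the genes of Ensembl release 99 (GRCm38), per the file headers. The command there gives no strand option, so overlapping antisense genes are not separated. HISAT2, DESeq2 and mm10 are named without versions, per the submitters' processing notes. The authors also deposited a table with log2 fold changes, standard errors, p-values, a score (the fold change over its error) and a normalised signal of counts per size factor. It was used only where named.

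Counts were tested with edgeR 4.0.16 (R 4.3.3; TMM scaling, filterByExpr, robust quasi-likelihood test, no term but the group), with adjustment by Benjamini-Hochberg over 16562 genes. The standard error is the log2 fold change over the square root of F. CPM uses TMM-scaled library sizes, and gene length is the merged exon length in the count table. Ratios were compared with exact permutation tests (scipy 1.17.1, Python 3.11.15). Transcripts were compared with blastn to find near-identical copies, with at least 95% identity over 200 bases.

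Libraries with the same number deviated together from their group means (r = 0.499, 0.515 and 0.649 across genes), so the numbers were taken as pairs from the data; the labels do not say what a number marks. Replicates were not repeats of one library: chi-square over its degrees of freedom was 6.11 to 30.8 within groups. No row lacked a gene identifier, and 55144 of 55471 had a symbol. On data simulated for this comparison with 16562 genes, edgeR recovered 130 of the 200 made to differ 2-fold, with 11 false calls, the blocked fit 127 with 26, and DESeq2 1.42.0 145 with 48.

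The 10 genes and the related lists were chosen with earlier results of these data known. Named were Opa1, the 10 genes, Afg3l1 and, in each related list, up to 4 called genes with the smallest p. Maip1, Pink1, Gpd2 and Diablo were added after their values were seen. Alternatives were the replicate block, replicate 3 as a second batch, other scalings, no filter, DESeq2, each library left out and pairs 1 and 2 only. Adding the counts of Gm7666 to Phb was a further alternative that was not planned.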

Additional observations from a re-analysis of the deposited data

How the results depend on the processing

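Over the alternatives run, 119 of 140 log2 fold changes of the 10 genes kept their direction and side of the threshold, and 80 of 80 levels per length moved by less than 1 SD. For most of these levels that outcome was fixed by arithmetic. Leaving 1 library out of a group this small cannot move its mean by 1 SD. Only the levels under RLE scaling, another way to scale library sizes, could have moved further. The replicate block called the same 6 genes, 4 higher and 2 lower, and raised the calls over all genes from 3130 higher and 3312 lower to 4770 and 5081. Upper quartile scaling left 1 gene called lower and turned Phb2 to 0.018, while the median of all genes went from -0.01 to 0.04. With 1 library left out, which also means fewer samples, 2 to 4 genes were called higher and 1 to 2 lower. Log2 fold changes then crossed 0 for Phb2 (-0.088 to 0.015), Oma1 (-0.27 to 0.039), Immp1l (-0.039 to 0.11), Immp2l (-0.051 to 0.34) and the ratio of Immp1l to Immp2l (-0.33 to 0.16). The other 4 ratios kept their direction with each library left out; no ratio could pass 0.05 in this design, and the mean of pair differences equals the difference of means by construction. With pairs 1 and 2 only, Oma1 was at 0.074 and Immp1l at -0.0025. The cause of the turns was not tested. Yme1l1 (-0.51 to -0.49), Afg3l2 (0.41 to 0.51) and Parl (0.49 to 0.61) were called in every leave-one-out fit. Depth limits Oma1 and Immp2l, at 81 to 128 and 30 to 60 counts per library.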
